A study of Homo sapiens with 4 samples.

Results

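The 58 genes described here encode the machinery of mitosis: the kinases and cyclins of mitotic entry, the spindle checkpoint, the anaphase-promoting complex/cyclosome (APC/C) and its substrates, the kinetochore, mitotic kinesins, spindle and cytokinesis proteins, and chromosome structure proteins. They were taken from a list of names by their GENCODE 29 symbols, and all 58 were found among the 58735 genes of the deposited count table. They were measured by RNA sequencing of polyadenylated RNA in the human line labelled MHCC97-H, derived from hepatocellular carcinoma and labelled wild type. The treated group is 2 libraries made after 16 h with clofazimine (CFZ), a riminophenazine antibiotic, whose dose is 40 uM in the sample labels and 30 uM in the series text. The other group is 2 libraries of the same line that received no treatment, and no vehicle is named for them. Whether the libraries of a group stem from different cultures is not said in the labels. The p-values therefore reflect only how far these libraries scatter, which may be technical.

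Entry into mitosis is driven by CDK1 bound to cyclin A or cyclin B, with the Polo-like and Aurora kinases acting beside it. The spindle checkpoint holds the APC/C back until kinetochores are attached to microtubules, after which the APC/C, activated by CDC20, marks securin and cyclin B for destruction and separase cuts cohesin. Many of these genes are transcribed in a wave in late S and G2 phase, through CCAAT boxes bound by NF-Y and a cell cycle genes homology region (CHR) that the DREAM and B-MYB-FOXM1 complexes recognise. In bulk RNA, a smaller share of cells in G2 and mitosis and less of a transcript per cell cannot be told apart.

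Total counts were 13543437 and 16318759 in the clofazimine libraries and 16429147 and 16860578 in the untreated libraries. Levels are given as CPM, a count per 1e+06 counts of the library, on library sizes scaled by TMM, the trimmed mean of M values, and a count of 0 in a library allows a level of up to 0.170 to 0.233 CPM. All 58 members passed the filter on low counts, and 56 of them lay above the median tested gene in the untreated libraries. Among markers of liver and hepatocellular carcinoma, the summed level was 1772 and 2010 CPM in clofazimine libraries and 1635 and 1910 CPM in untreated libraries, nearly all of it from the keratin genes KRT8 and KRT18. The defining liver markers ALB, AFP, APOB, TTR and FGB had 0 counts in every library, so the label of a liver origin was not visible in those genes. Of 15 markers of other cell types 8 passed the filter, with sums of 169 and 150 CPM in clofazimine libraries and 173 and 190 CPM in untreated libraries, and PTPRC, the pan-leukocyte marker, was at 0. Most of these sums came from COL1A1, the collagen gene, which was higher (log2 fold change 0.44), while the other 7 tested were lower and the median of the 8 was -2.41. PECAM1, an endothelial marker, was at 5.29 and 4.72 CPM in clofazimine libraries and 22.9 and 28.9 CPM in untreated libraries, and PDGFRB, a mesenchymal marker, at 1.71 and 1.05 CPM in clofazimine libraries and 9.87 and 11.4 CPM in untreated libraries. Of 6 liver markers tested, KRT18 was higher and 3 were lower, HNF4A, SERPINA1 and KRT19, the last of them at 7.07 and 8.13 CPM in clofazimine libraries and 13.5 and 16.1 CPM in untreated libraries. The part of these marker changes in the results on mitotic genes was not tested.

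The mitotic genes did not move together after clofazimine. Genes of mitotic entry, the spindle checkpoint and APC/C activation were mostly higher, led by UBE2C, TTK, PTTG1, BUB3 and CDC25B, while separase (ESPL1), the spindle pole gene ASPM, PLK1, the kinesin KIF11, several outer kinetochore genes and the condensin subunit NCAPD2 were lower. Of the 58 members 22 were higher, 15 were lower and 21 did not pass the test (quasi-likelihood test of edgeR, p adjusted by Benjamini-Hochberg over 16388 genes, threshold 0.05). That is 63.8% of the members, beside 59.9% of all genes tested, so the share of members called was close to the background. The share called higher was 37.9% of members and 29.5% of all genes, and the share called lower was 25.9% of members and 30.4% of all genes. Counts of each role below are to be read beside these shares of all genes. With library totals in place of TMM scaling 15 members were higher and 24 lower, a scaling that moves the median of all genes to -0.20, from -0.03 with TMM, on the log2 scale. Relative to the median of all genes the members' median was 0.13 under TMM and 0.12 under library totals, but -0.09 with an offset for exon length and GC content. It was 0.21 both without a filter and with the DESeq2 test.

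Fold changes of the members were small. Their median size was 0.43 on the log2 scale, against 0.59 over all genes tested, and only 5 of the 58 were called with a change of at least 2-fold (8.62%), against 26.4% of all genes. These 5 were PRC1, UBE2C and TTK, all higher, and ESPL1 and SPC25, both lower. The libraries of the 2 groups did not overlap for 54 of the 58 members (93.1%), with 29 above and 25 below, against 80.8% of all genes. These comparisons with all genes were not matched for level. The median level in untreated libraries was 85.0 CPM for members and 19.0 CPM for all genes tested. The summed level of all members was 7494 and 7182 CPM in clofazimine libraries and 7547 and 7527 CPM in untreated libraries. Leaving out a library changed the counts: without untreated replicate 1 there were 11 higher and 11 lower members, and without untreated replicate 2 there were 12 higher and 13 lower.

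**Figure D1:**
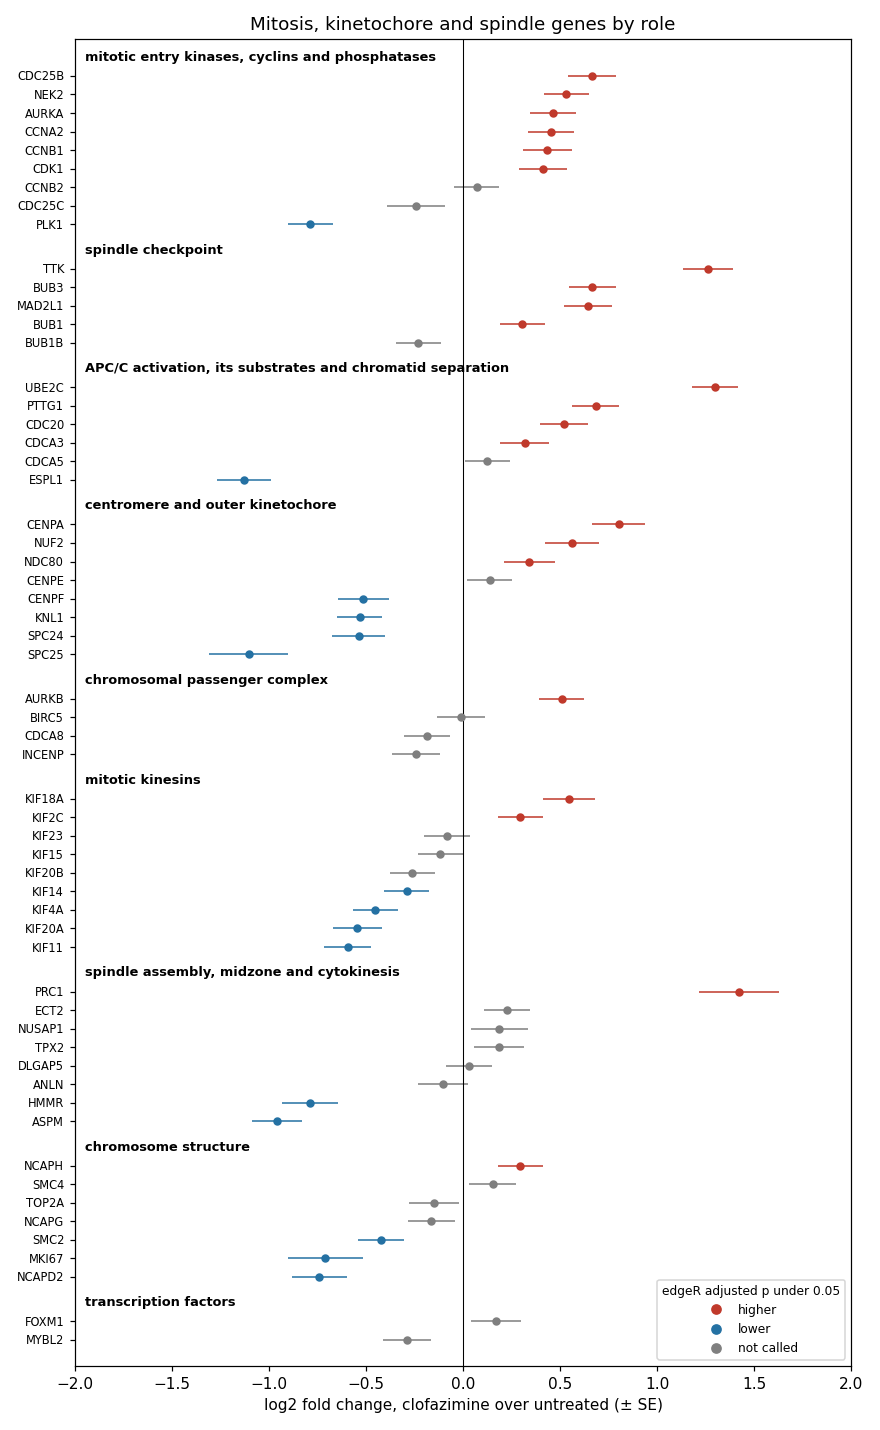
Log2 fold change of each of the 58 members, clofazimine over untreated, with its standard error (SE), grouped by role and coloured by call. In mitotic entry, the checkpoint and APC/C activation 6 of 9, 4 of 5 and 4 of 6 were higher, beside 29.5% of all genes. Of kinesins, kinetochore and chromosome structure genes 4 of 9, 4 of 8 and 3 of 7 were lower, beside 30.4% of all genes. Kinetochore genes also had 3 of 8 higher. With the exon length and GC offset 3 of 9 mitotic entry genes were higher. PLK1 and ESPL1 were lower among roles that were mostly higher.

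The sequence elements of this gene class were present in promoters of higher, lower and uncalled members, in unequal shares. RefSeq promoters (GRCh38.p14, 250 bases before to 50 bases after the start) were found for 50 of the 58 members. Those without one were UBE2C, TTK, BUB3 and AURKA, called higher, KNL1, called lower, and BIRC5, TPX2 and FOXM1, not called. A CCAAT box, searched as CCAAT on both strands, lay in 72.0% of the 50, against 35.7% of 27305 promoters, and TTTGAA, the commonest form of the CHR, searched on both strands, in 70.0%, against 15.4%. TTTGAA lay in 9 of 18 promoters of higher members, 12 of 14 of lower members and 14 of 18 of members not called. With TTTAAA also scored as a form of the CHR, the counts were 13 of 18, 13 of 14 and 15 of 18. Either form lay in 24.3% of all promoters. A CCAAT box lay in 14 of the 18 higher, 13 of the 14 lower and 9 of the 18 uncalled members. Both elements were present in 7 of the 18 higher, 11 of the 14 lower and 9 of the 18 uncalled members, and in 6.08% of all promoters. The letters do not show whether a factor was bound, and these shares are descriptions with no test. The 150 bases before the RefSeq start are shown for 3 higher genes, CDC20, NEK2 and CDK1, and 3 lower genes, ESPL1, ASPM and KIF11, with CCAAT or its reverse complement ATTGG, and TTTGAA or its reverse complement TTCAAA, in capitals.
CDC20, chr1:43358831-43358980, plus strand: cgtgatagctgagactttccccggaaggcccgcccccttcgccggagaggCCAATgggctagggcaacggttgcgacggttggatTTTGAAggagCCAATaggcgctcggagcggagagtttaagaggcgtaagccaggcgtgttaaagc
NEK2, chr1:211675622-211675771, minus strand: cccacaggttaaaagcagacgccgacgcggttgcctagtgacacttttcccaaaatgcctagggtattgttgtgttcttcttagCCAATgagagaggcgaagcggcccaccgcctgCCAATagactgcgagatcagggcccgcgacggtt
CDK1, chr10:60778181-60778330, plus strand: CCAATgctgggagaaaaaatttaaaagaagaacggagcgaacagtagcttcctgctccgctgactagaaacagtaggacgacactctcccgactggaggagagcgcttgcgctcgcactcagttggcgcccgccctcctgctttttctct
ESPL1, chr12:53268149-53268298, plus strand: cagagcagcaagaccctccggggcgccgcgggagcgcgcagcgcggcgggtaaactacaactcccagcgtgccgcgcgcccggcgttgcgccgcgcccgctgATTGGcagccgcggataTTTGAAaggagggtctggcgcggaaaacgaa
ASPM, chr1:197146670-197146819, minus strand: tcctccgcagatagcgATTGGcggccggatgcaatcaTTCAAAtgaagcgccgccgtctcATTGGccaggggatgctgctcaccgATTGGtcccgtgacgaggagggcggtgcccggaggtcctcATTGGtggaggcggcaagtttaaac
KIF11, chr10:92592980-92593129, plus strand: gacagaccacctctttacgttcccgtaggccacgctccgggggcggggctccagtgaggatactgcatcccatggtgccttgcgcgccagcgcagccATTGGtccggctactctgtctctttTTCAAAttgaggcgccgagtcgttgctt
In the stretches shown, CDC20 among the higher genes and all 3 lower genes, ESPL1, ASPM and KIF11, hold both elements, while NEK2 and CDK1 hold CCAAT without TTTGAA. The full promoter window of CDK1 holds 1 TTTGAA, upstream of its stretch, so CDK1 is counted above as holding both. TTTAAA, not marked in capitals, lies in the stretches of CDK1 and ASPM. The 6 stretches are examples and do not stand for their groups. Among members not shown, the higher genes PRC1, CENPA and KIF18A hold both elements in the same stretch. The lower genes KIF20A, SPC24, SPC25, CENPF and KIF14 hold CCAAT there without TTTGAA.

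Among the 9 genes of mitotic entry 6 were higher, 1 was lower and 2 did not pass the test. CDC25B (ENSG00000101224, chromosome 20, 3786772 to 3806121), a phosphatase that activates CDK1, was at 396 and 386 CPM in clofazimine libraries, against 248 and 245 CPM in untreated libraries. It was 1.59-fold higher, at a log2 fold change of 0.67 ± 0.12 (SE, edgeR adjusted p 2.19e-04), and its libraries did not overlap. PLK1 (ENSG00000166851, chromosome 16, 23677656 to 23690367), the Polo-like kinase of mitotic entry and kinetochore attachment, went the other way, at 80.1 and 76.0 CPM in clofazimine libraries and 132 and 137 CPM in untreated libraries. It was 1.73-fold lower (log2 fold change -0.79 ± 0.12, edgeR adjusted p 2.69e-05). The other higher genes were NEK2, a centrosome kinase (0.53), AURKA, the Aurora kinase of the spindle poles (0.46), CCNA2 (0.45) and CCNB1 (0.43), which encode cyclins A2 and B1, and CDK1 itself (0.41). The log2 fold changes of cyclin B2 (CCNB2, 0.07) and of CDC25C, another CDK1 phosphatase (-0.24), did not pass the test. CDC25C was called lower under library totals (-0.41). With an offset for exon length and GC content the calls of CDK1 (-0.03), CCNA2 (0.22) and CCNB1 (0.22) ended, and those of CDK1 and CCNB1 ended also under library totals. CDK1, CCNB1 and AURKA were not called without either untreated library, nor CCNA2 without untreated replicate 1.

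Levels per kb of exon were divided by the merged length of all annotated exons of a gene, which need not be that of the expressed transcript. They set different genes side by side only roughly, and ranks of genes per kb carry the same limit. Per kb of exon, PLK1 stood at 0.387 and 0.316 of the CDK1 level in clofazimine libraries and at 0.803 and 0.797 in untreated libraries. Against AURKA, which activates PLK1, the ratio of PLK1 was 0.338 and 0.312 in clofazimine libraries and 0.769 and 0.775 in untreated libraries. Both ratios were lower in each clofazimine library than in either untreated library, and they were not tested, since 2 against 2 libraries cannot give an exact permutation p below 0.333. They and the other ratios given here were chosen after the values were seen. CCNB1 was the most abundant of CDK1 and its cyclins per kb in both groups, at 76.5 CPM per kb in clofazimine and 56.6 CPM per kb in untreated libraries.

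All but BUB1B of the 5 spindle checkpoint genes were higher. TTK (ENSG00000112742, chromosome 6, 80003887 to 80042527), which encodes the kinase MPS1 that starts checkpoint signalling, was at 59.4 and 63.5 CPM in clofazimine libraries, against 24.8 and 26.4 CPM in untreated libraries. That is a 2.40-fold higher level (log2 fold change 1.26 ± 0.13, edgeR adjusted p 4.38e-07), with no overlap between groups. BUB3, a scaffold of the checkpoint complex, was higher by 0.67, MAD2L1, which binds CDC20 when kinetochores are unattached, by 0.64, and the kinase BUB1 by 0.30 on the log2 scale. BUB1B, which encodes BUBR1, a part of the inhibitor of the APC/C, was at 62.2 and 61.5 CPM in clofazimine libraries and 72.9 and 72.2 CPM in untreated libraries, a log2 fold change of -0.23 ± 0.12 that did not pass the test (edgeR adjusted p 0.0932). The BUB1 call ended under library totals (0.14), without a filter, and without either untreated library, while those of TTK, BUB3 and MAD2L1 held in each of 12 other ways of processing the counts. Under library totals 3 of the 5 were higher and BUB1B was lower, as it also was with the length and GC offset.

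Of the 6 genes of APC/C activation and chromatid separation 4 were higher and 1 was lower. UBE2C (ENSG00000175063, chromosome 20, 45812576 to 45816957), the ubiquitin-conjugating enzyme that starts chains for the APC/C, was at 140 and 150 CPM in clofazimine libraries and 57.8 and 59.9 CPM in untreated libraries. It was 2.46-fold higher (log2 fold change 1.30 ± 0.12, edgeR adjusted p 1.48e-07). Per kb of exon it was the highest of the 58 members in clofazimine libraries, at 113 CPM per kb, and the 8th in untreated libraries, at 45.8 CPM per kb. PTTG1, which encodes securin, the inhibitor of separase, was higher by 0.68, CDC20 by 0.52 and CDCA3, a mitotic entry factor, by 0.32, on the log2 scale. CDCA5, which encodes sororin, the protector of cohesin, was at 0.12 and did not pass the test. With the length and GC offset CDCA5 was called higher (0.35). The CDCA3 call ended in 7 alternatives, DESeq2, either untreated library left out and clofazimine replicate 2 left out among them, and the CDC20 call ended without untreated replicate 1.

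ESPL1 (ENSG00000135476, chromosome 12, 53268299 to 53293643) encodes separase, the protease that cuts cohesin at anaphase. It was at 76.3 and 56.4 CPM in clofazimine libraries, against 145 and 145 CPM in untreated libraries. Both clofazimine libraries lay well below the untreated libraries, a 2.19-fold lower level (log2 fold change -1.13 ± 0.14, edgeR adjusted p 3.75e-06). With the length and GC offset the log2 fold change was -0.66, still called. Per kb of exon, the RNA of separase stood at 0.204 and 0.132 of that of securin in clofazimine libraries and at 0.602 and 0.560 in untreated libraries. This RNA ratio was lower in each clofazimine library, and protein was not measured. ESPL1 has 8.89 kb of exon and PTTG1 has 2.01 kb, and fold changes of the members ran with exon length. The part of length in this ratio was not tested.

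Centromere and outer kinetochore genes divided, with 3 of 8 higher and 4 lower. CENPA (ENSG00000115163, chromosome 2, 26764289 to 26801067), the histone H3 variant that marks centromeres, was at 34.7 and 33.4 CPM in clofazimine libraries and 19.4 and 19.6 CPM in untreated libraries. It was 1.74-fold higher (log2 fold change 0.80 ± 0.14, edgeR adjusted p 9.84e-05). CENPA shares 138 exon bases with SLC35F6 on the same strand, which was also higher (0.72). CENPF, a large kinetochore and nuclear matrix protein, was lower (log2 fold change -0.51), as was KNL1, the scaffold that recruits BUB1 and BUBR1 (-0.53). CENPE, the kinetochore motor that carries chromosomes to the spindle equator, was at 0.14 and did not pass the test.

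The NDC80 complex, which joins kinetochores to microtubules, showed a split between its subunits. NUF2 (ENSG00000143228, chromosome 1, 163266576 to 163355764), which pairs with NDC80 in the microtubule-binding end, was at 39.5 and 46.4 CPM in clofazimine libraries and 31.5 and 26.7 CPM in untreated libraries. Its log2 fold change was 0.56 ± 0.14 (edgeR adjusted p 0.00240) and that of NDC80 was 0.34 ± 0.13 (edgeR adjusted p 0.0338), from 42.9 and 42.8 CPM in clofazimine libraries against 36.6 and 31.1 CPM in untreated libraries. SPC25 (ENSG00000152253, chromosome 2, 168834132 to 168913371), which pairs with SPC24 in the end that faces the chromosome, was at 4.74 and 5.90 CPM in clofazimine libraries and 11.7 and 11.3 CPM in untreated libraries. SPC25 was 2.15-fold lower (log2 fold change -1.11 ± 0.20, edgeR adjusted p 1.97e-04), and SPC24 had a log2 fold change of -0.54 ± 0.14 (edgeR adjusted p 0.00300). The ratio of SPC24 plus SPC25 to NDC80 plus NUF2, per kb of exon, was 0.486 and 0.517 in clofazimine libraries and 1.08 and 1.14 in untreated libraries, with no overlap. The NUF2 and NDC80 calls ended with the length and GC offset (0.17 and 0.06) and without untreated replicate 2, and the SPC24 call ended without untreated replicate 1, whereas the SPC25 call held in all 12. NDC80 was also not called without untreated replicate 1, without clofazimine replicate 2, under library totals, without a filter and with DESeq2. The ratio itself was not tested.

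**Figure D2:**
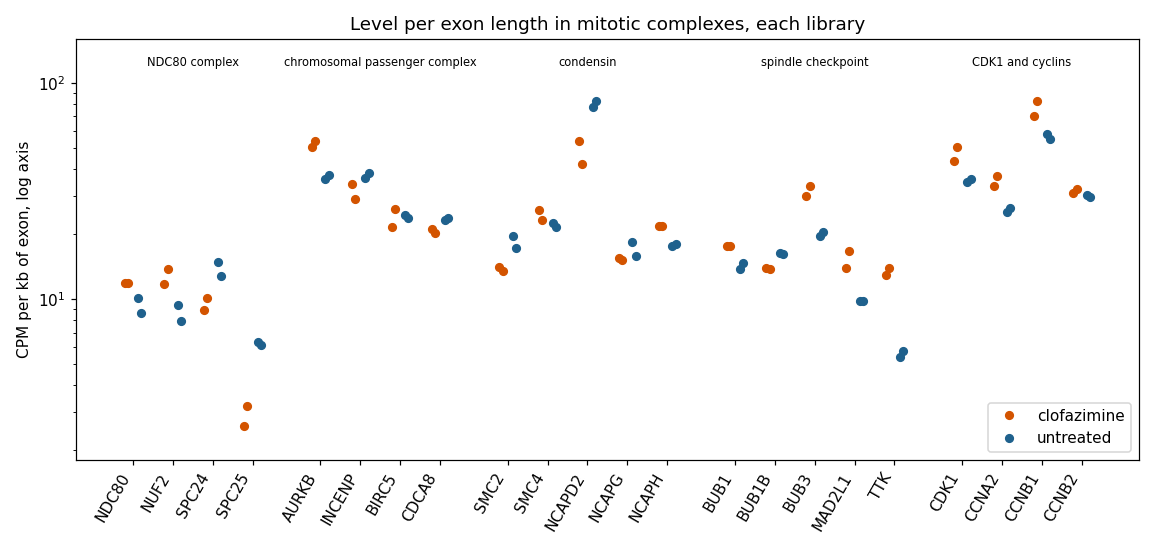
Level of each subunit in CPM per kb of exon (log axis) in 5 groups of mitotic genes, with 1 point per library, clofazimine left of untreated. SPC24 and SPC25 lie lower in the clofazimine libraries while NDC80 and NUF2 lie higher, and within the passenger complex AURKB stands above its untreated level.

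In the chromosomal passenger complex, which corrects faulty attachments and later directs cytokinesis, the kinase subunit alone was called. AURKB (ENSG00000178999, chromosome 17, 8204733 to 8210600) was at 113 and 121 CPM in clofazimine libraries and 80.2 and 84.2 CPM in untreated libraries, a log2 fold change of 0.51 ± 0.12 (edgeR adjusted p 0.00131) that did not pass the test without untreated replicate 1. INCENP, the scaffold of the complex, was at 153 and 129 CPM in clofazimine libraries and 163 and 171 CPM in untreated libraries, a log2 fold change of -0.24 ± 0.12 (edgeR adjusted p 0.101). BIRC5, which encodes survivin, was at -0.01 and CDCA8, which encodes borealin, at -0.18, and neither passed the test. Under library totals INCENP and CDCA8 were called lower, and so was INCENP without clofazimine replicate 1. Per kb of exon AURKB stood at 50.6 and 53.8 CPM per kb in clofazimine libraries and at 35.8 and 37.6 CPM per kb in untreated libraries, and INCENP at 34.2 and 28.9 CPM per kb in clofazimine libraries and 36.5 and 38.2 CPM per kb in untreated libraries.

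Of 9 mitotic kinesins 4 were lower and 2 were higher. KIF11 (ENSG00000138160, chromosome 10, 92593286 to 92655395), also named Eg5, the motor that pushes spindle poles apart, was at 73.4 and 69.1 CPM in clofazimine libraries and 114 and 101 CPM in untreated libraries. It was 1.51-fold lower (log2 fold change -0.60 ± 0.12, edgeR adjusted p 4.48e-04). KIF20A, a motor of the central spindle (log2 fold change -0.55), KIF4A, a chromokinesin (-0.45), and KIF14, a cytokinesis motor (-0.29), were lower too. The KIF14 call ended in 7 alternatives, among them DESeq2 and leaving out either untreated library or clofazimine replicate 1, the KIF4A call ended without untreated replicate 1, and the KIF20A call without untreated replicate 2.

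The higher kinesins both act on microtubule ends. KIF18A (ENSG00000121621, chromosome 11, 28020620 to 28108308), which damps chromosome movement at the spindle equator, was at 38.5 and 38.1 CPM in clofazimine libraries and 27.9 and 24.6 CPM in untreated libraries. Its log2 fold change was 0.55 ± 0.13 (edgeR adjusted p 0.00221) and 0.16, not called, with the length and GC offset, and it was not called without untreated replicate 2. KIF2C (ENSG00000142945, chromosome 1, 44739818 to 44767767), a microtubule depolymerase, was at 149 and 151 CPM in clofazimine libraries and 122 and 122 CPM in untreated libraries. Its log2 fold change of 0.29 ± 0.12 (edgeR adjusted p 0.0369) was not called under library totals (0.13), without a filter or without either untreated library. KIF20B (-0.26) and KIF23 (-0.09), which act in cytokinesis, and KIF15, a spindle motor that can back up KIF11 (-0.12), did not pass the test. KIF20B was called lower under library totals, with another filter on low counts and with the length and GC offset (-0.59). KIF15 was called lower under library totals.

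Among the 8 genes of spindle assembly, midzone and cytokinesis 1 was higher, 2 were lower and 5 did not pass the test. ASPM (ENSG00000066279, chromosome 1, 197084128 to 197146694), which focuses spindle poles, was at 102 and 84.6 CPM in clofazimine libraries and 177 and 186 CPM in untreated libraries. It was 1.94-fold lower (log2 fold change -0.96 ± 0.13, edgeR adjusted p 8.30e-06). HMMR, which encodes a microtubule-binding protein of the spindle, was lower (log2 fold change -0.79). ANLN, the contractile ring scaffold anillin, at -0.10, ECT2, the activator of RhoA in cytokinesis, at 0.22, TPX2, the activator of Aurora A on spindles, at 0.18, NUSAP1, a microtubule bundler, at 0.19 and DLGAP5, which stabilises kinetochore fibres, at 0.03 did not pass the test.

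PRC1 (ENSG00000198901, chromosome 15, 90966038 to 90995629), which crosslinks midzone microtubules, was at 11.1 and 10.7 CPM in clofazimine libraries and 3.99 and 4.13 CPM in untreated libraries. Its libraries did not overlap, at a log2 fold change of 1.42 ± 0.21 (edgeR adjusted p 2.32e-05). GENCODE 29 annotates a same-strand gene (ENSG00000284946) that shares 3181 of the 5525 exon bases of PRC1, and how reads in shared exons were counted is not given in the sources used here. That gene was at 49.5 and 41.0 CPM in clofazimine libraries and 20.7 and 23.8 CPM in untreated libraries, a log2 fold change of 1.02. The level of PRC1 therefore need not be that of its whole mRNA. NUSAP1 shares 1787 of 2875 exon bases with another same-strand gene, which had 0 counts in all libraries.

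Chromosome structure genes had 1 of 7 higher and 3 lower. NCAPD2 (ENSG00000010292, chromosome 12, 6493356 to 6531955), a subunit of condensin I, was at 348 and 272 CPM in clofazimine libraries and 500 and 537 CPM in untreated libraries. It was 1.67-fold lower (log2 fold change -0.74 ± 0.14, edgeR adjusted p 2.72e-04). NCAPH (ENSG00000121152, chromosome 2, 96335787 to 96373845), the kleisin subunit of the same complex, was at 71.4 and 71.6 CPM in clofazimine libraries and 58 and 58.7 CPM in untreated libraries, a log2 fold change of 0.29 ± 0.12 (edgeR adjusted p 0.0363). The NCAPH call ended under library totals, without a filter, with DESeq2 and without either untreated library. Of the core ATPases of condensin, SMC2 was lower (-0.42, not called without untreated replicate 1) and SMC4 was at 0.15, not called, with 25.6% of the exon bases of SMC4 shared with genes on the opposite strand. The subunit NCAPG (-0.16) and TOP2A, the DNA topoisomerase of mitotic chromosomes (-0.15), did not pass the test. NCAPG shares 33.1% of its exon bases with LCORL on the opposite strand, which was higher (0.65).

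MKI67, which encodes the proliferation marker Ki-67, was the member whose clofazimine libraries differed most. It was at 445 and 246 CPM in clofazimine libraries and 571 and 560 CPM in untreated libraries. Both clofazimine libraries were below both untreated libraries, at a log2 fold change of -0.71 ± 0.19 (edgeR adjusted p 0.00459), but the size rested on the second: it was -0.33 without clofazimine replicate 2 and -1.18 without clofazimine replicate 1. The call ended with the DESeq2 test, without a filter and with the length and GC offset (-0.33).

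The transcription factors of the mitotic wave were not called. FOXM1 (ENSG00000111206, chromosome 12, 2857681 to 2877155) was at 256 and 210 CPM in clofazimine libraries and 212 and 203 CPM in untreated libraries, and its groups overlapped. Its log2 fold change was 0.17 ± 0.13 (edgeR adjusted p 0.275), 0.32 and called without clofazimine replicate 2, 0.45 and called with the length and GC offset, and 0.00 under library totals. FOXM1 shares 15.9% of its exon bases with ITFG2 on the opposite strand, which was higher (0.51). MYBL2 (ENSG00000101057, chromosome 20, 43667019 to 43716496), which encodes B-MYB, was at 258 and 241 CPM in clofazimine libraries and 303 and 306 CPM in untreated libraries. Its groups did not overlap, but its log2 fold change of -0.29 ± 0.12 lay at the threshold (edgeR adjusted p 0.0507), and it was called lower in 5 of 12 alternatives. Per kb of exon MYBL2 was the highest of the 58 members in untreated libraries, at 110 CPM per kb, and the 6th in clofazimine libraries, at 89.7 CPM per kb.

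**Figure D3:**
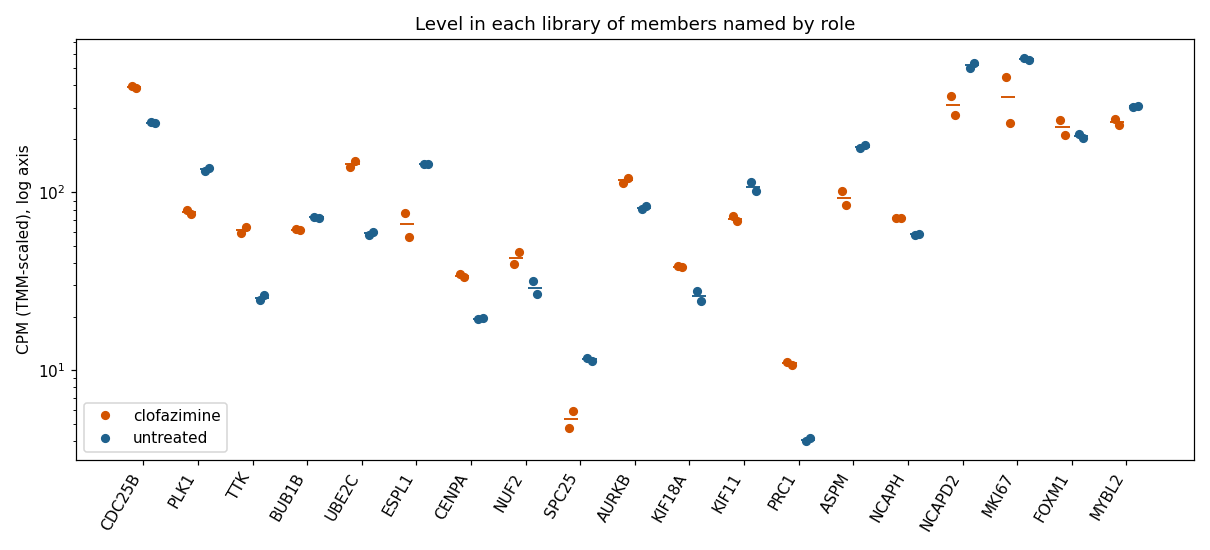
CPM in each library (log axis) for 19 members, those named by role and MKI67, with clofazimine left of untreated, points for libraries and bars for group means. Replicates lie close together for most members, and the clofazimine libraries of MKI67, at 445 and 246 CPM, are the widest apart.

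Fold changes of the members ran with exon length. Across the 58 members Spearman's rho between log2 fold change and exon length was -0.37, against -0.15 across all 16388 genes, as a description over genes measured in the same 4 libraries. Of 14 members with under 3 kb of exon 8 were higher and 2 lower, and of 16 members with 6 kb or more 2 were higher and 8 lower. Their median log2 fold changes were 0.44 and -0.28. The short higher genes include UBE2C, PTTG1, CENPA and CDC20, and the long lower genes include MKI67, CENPF, ASPM, KNL1 and ESPL1, while SPC25 was short and lower and BUB3 was long and higher.

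The clofazimine libraries also differed from each other along the same axis: across the members, rho between exon length and the difference of clofazimine replicate 2 minus replicate 1 was -0.49, and -0.08 for the untreated libraries. Against the untreated mean, rho with length was -0.33 for clofazimine replicate 1 and -0.42 for replicate 2. An offset fitted over all genes for exon length and GC content left the rho of the members at -0.37, kept 30 of the 37 calls in their direction, ended 7 and reversed none of them as a call. With it 18 members were called higher and 19 called lower, and their median was -0.06, in place of 0.10. Across the members, the change that the offset made to the log2 fold change ran with GC content (rho 0.83). The log2 fold changes without the offset had a rho of 0.06 with GC content. The part of RNA quality or library preparation in this length relation was not tested.

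**Figure D4:**
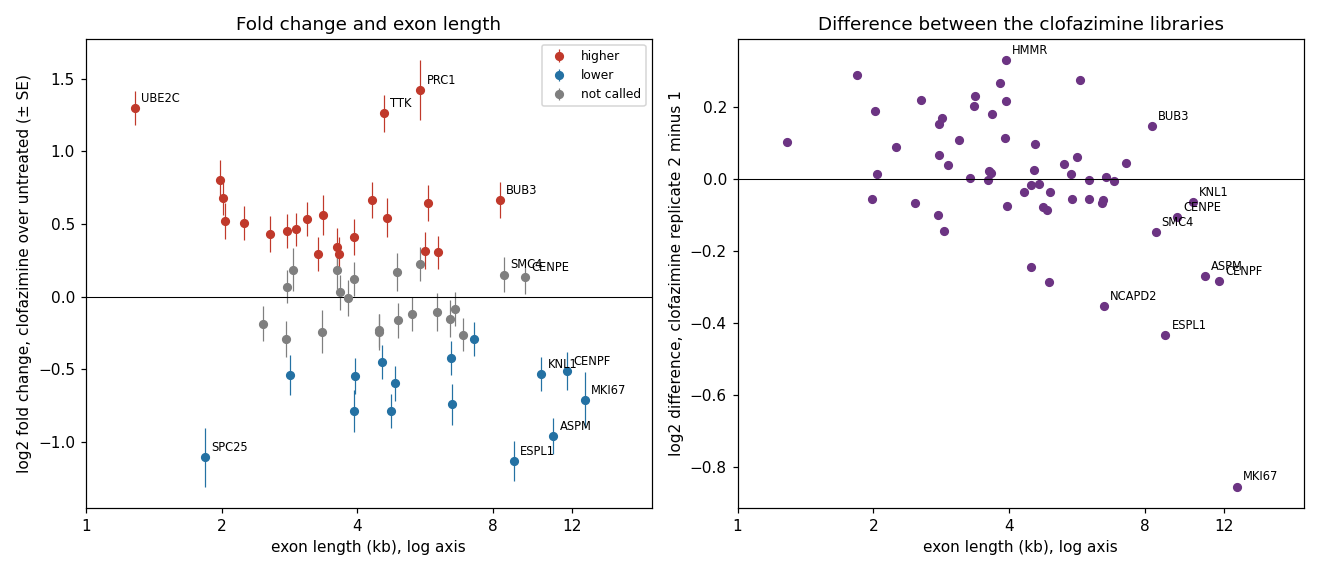
Left, log2 fold change (± SE) of the 58 members against exon length in kb (log axis), coloured by call. Right, the log2 difference between the clofazimine libraries against exon length. Members over 8 kb such as ESPL1, ASPM and MKI67 are low in both panels, and BUB3 is above 0 in both. CENPE and SMC4, also over 8 kb, are above 0 in the left panel only (0.14 and 0.15, not called).

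Mitotic genes outside the list also held both higher and lower genes. Of 133 such genes 132 were tested, and 46 were higher and 25 lower (53.8%, near the 59.9% of all genes), with 34 higher and 38 lower under library totals and 25 higher and 21 lower without untreated replicate 2. Of all genes tested 29.5% were higher and 30.4% lower, and the counts of each list are to be read beside these shares. Other G2 to M regulators had the largest share higher, 11 of 16, with 3 lower. CKS1B and CKS2, small subunits that bind CDK1, were higher by 1.21 and 0.92 on the log2 scale, and CCNF, which encodes cyclin F, and GTSE1, a G2 and S phase protein, were lower, at -1.28 and -0.81. CKS1B was at 179 and 219 CPM in clofazimine libraries and 86.5 and 84.9 CPM in untreated libraries, with no overlap.

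Among 18 APC/C subunits and regulators 6 were higher and 1 was lower. The share called was 38.9% in this list and 42.9% in each of the kinetochore and cohesin lists below, under the 59.9% of all genes. UBE2S, which extends the chains that UBE2C starts, was at 245 and 291 CPM in clofazimine libraries and 138 and 133 CPM in untreated libraries, a log2 fold change of 0.98 ± 0.13 (edgeR adjusted p 6.86e-06), and ANAPC10 was higher by 1.71 at a low level. ANAPC2, the cullin subunit, was lower (-0.43). Among 28 other kinetochore genes 7 were higher, among them SKA1 (0.86) and CENPU (0.67), and 5 were lower, among them CENPI (-0.99) and CENPO (-0.90). Cohesin and its regulators had 4 of 14 higher and 2 lower, with the cohesin core subunit SMC1A at 243 and 199 CPM in clofazimine libraries and 555 and 542 CPM in untreated libraries (log2 fold change -1.32 ± 0.14, edgeR adjusted p 6.13e-07). WAPL, which releases cohesin, was the other lower gene (-0.55), and ESCO1, a cohesin acetyltransferase, and SGO1, the protector shugoshin, were higher (0.85 and 0.44).

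Centrosome and spindle pole genes had 8 of 23 higher, led by CEP135 (1.74) and HAUS6 (1.20), and 6 lower, led by KIF24 (-1.27) and CEP192 (-0.93). Other cytokinesis genes had 3 of 8 higher, among them SEPTIN7 (0.88) and TROAP (0.64), and 2 lower, the citron kinase CIT (-1.34) and KIF13A (-0.73). In the condensin II list 1 of 5 genes, NCAPD3, was lower (-0.62). Of the MuvB, DREAM and E2F factors 7 of 20 were higher, with E2F5 at 0.86 and RBL1, which encodes p107, at 0.50, and 5 were lower, with E2F8 at -1.37 and E2F2 at -1.18.

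Neighbouring phases of the cell cycle were set beside the members with lists of the same kind. The members had 22 higher, 15 lower and a median of 0.10. In the list for DNA replication, 8 of 30 genes were higher and 13 lower, with a median of -0.03, and 0 were called at 2-fold or more. Its range ran from POLA1, the catalytic subunit of DNA polymerase alpha (-0.85), to ORC6, an origin recognition subunit (0.80). Of 17 G1 cyclins and CDK inhibitors 6 were higher and 5 lower, with GADD45A, a stress gene that inhibits CDK1, higher by 3.87 and CCNE1, which encodes cyclin E1, lower, at -1.61. The share called was 70.0% of the replication list, 64.7% of the G1 list and 63.8% of members, beside 59.9% of all genes. The difference between these lists and the members was not tested.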

How the data were processed

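The authors deposited whole-number counts per Ensembl gene, 1 column per library, per the file headers. Per the submitters' processing notes, fastp and GRCh38 were used. The aligner, counting rule, strand setting and annotation are not given in the sources used here. RNA was polyadenylated and libraries were made with a TruSeq kit, per the labels' protocols. Symbols, exon lengths and coordinates came from GENCODE 29 (GRCh38), with exon length as the merged length of all exons of a gene.

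Genes were filtered with filterByExpr (minimum count 10, minimum total 15), scaled by TMM (factors 0.936 to 1.07) and tested with edgeR 4.0.16 in R 4.3.3, in 1 fit of all 4 libraries without a replicate term. P-values were adjusted over 16388 genes, and an adjusted p under 0.05 was a call. The biological coefficient of variation was 9.91%. The standard error is the log2 fold change over the square root of F. The pipeline was tested on simulated counts. Replicates differed by more than counting noise (chi-square per degree of freedom 11.8 for clofazimine, 5.81 for untreated).

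Members and lists were chosen with earlier results of these data known. In each role the highest and lowest members, members called against the majority of their role, and all members of roles with under 3 are given by library. MKI67 and the ratios were singled out after their values were seen. From each list of other mitotic genes up to 2 higher and 2 lower genes are named. Alternatives were DESeq2 1.42.0 size factors and test, library totals, 2 other filters, limma-voom (limma 3.58.1), a replicate block, an exon length and GC offset (mgcv 1.9.3) and leaving out each library. Depth limits levels below about 0.2 CPM, for counting error only.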

Additional observations from a re-analysis of the deposited data

How the results depend on the processing

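The count of members called was 30 to 39 of 58 in the alternatives that kept every library, and 22 to 38 when 1 library was left out, with 11 to 22 higher and 11 to 16 lower, the fewest without untreated replicate 1. Library totals gave 24 lower members and 38 lower genes among the other mitotic genes. Leaving out a library gave 46 to 81 calls among those other genes, 25 to 54 of them higher, the fewest without untreated replicate 2. The members' median log2 fold change of 0.10 was -0.071 under library totals, -0.057 with the exon length and GC offset, 0.049 without the 8 members whose exons overlap other genes (chosen after the data were seen) and 0.051 to 0.11 when a library was left out. The 8 were PLK1, BUB1B, CENPA, PRC1, NUSAP1, NCAPG, SMC4 and FOXM1. They share over 10% of exon bases with opposite-strand genes or any with a same-strand gene. Of the 37 called members 18 kept their call in all 12 alternatives, 9 higher and 9 lower. With the offset CDK1 was at -0.029 and DLGAP5, not called without it, was called at -0.36. The cause of these shifts was not tested. Whether same-numbered libraries were paired is not said in the labels. Their deviations correlated at -0.05 across genes, which rests on 1 difference per group and cannot show that they were unpaired. The replicate block gave 35 called members, 21 higher and 14 lower. All-gene counts stayed within 1.5 times of 9811 in every alternative run.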
